A study of Homo sapiens with 6 samples.

Results

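The zinc finger genes that carry a ZNF symbol and lie on an autosome other than chromosome 19 were followed in AC16 cells treated with doxorubicin. Members were protein-coding genes whose symbol is ZNF and a number, on chromosomes 1 to 18 and 20 to 22. A letter after the number was allowed, and 17 members, ZNF385A among them, carry one. The summed count had to be at least 100 over the 6 libraries. Of 251 genes that met the symbol, type and chromosome rule, 208 reached that count, among 58299 genes in the whole table. The other 43 fell below it, and 11 of these had no count in any library, which over all 6 libraries allows a level of up to 0.0273 CPM (3 counts over all libraries). That limit covers counted reads only, as the treatment of reads that map to several places was not given. The related genes ZNF705A, ZNF705B, ZNF705D and ZNF705G are among the 11, so it may not hold for them. CPM expresses each count relative to the sum of its library. The rule used the total over both treatments and not the difference between them. All 208 members passed the filter on low counts and entered the test. Just inside the limit were ZNF572 with 104 counts, ZNF595 with 111 and ZNF892 with 119, and just outside it were ZNF695 with 91, ZNF410 with 79 and ZNF165 with 76.

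Of the 6 libraries, 3 came from AC16 cells given 100 nM doxorubicin for 48 h and 3 from AC16 cells given 0.1% DMSO, the vehicle, for the same 48 h. Doxorubicin is an anthracycline that traps type II topoisomerases on cut DNA. AC16 is a proliferating human line made by fusing cells of ventricular tissue with SV40-transformed fibroblasts, so it is a model of cardiomyocytes only in part. Column totals ran from 17252862 to 19571731 counts, and values are given as CPM after TMM scaling, which sets the libraries to a common scale. None of 8 cardiomyocyte markers, TNNT2 and MYH7 among them, passed the low-count filter, and their summed level was 0.845 to 1.82 CPM in doxorubicin libraries and 0.312 to 0.391 CPM in DMSO libraries. All 7 fibroblast and mesenchymal markers passed, with a sum of 5420 to 8030 CPM after doxorubicin and 15600 to 17800 CPM in DMSO. That sum moved with the treatment, and its part in the values that follow was not tested. In RNA from whole cultures, fewer cells of a kind and less RNA per cell cannot be told apart.

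Most ZNF genes encode C2H2 zinc finger proteins, in which short fingers folded around a zinc ion stand in a row and read DNA base by base. Many of them start with a KRAB domain, which calls in the corepressor TRIM28 (KAP1) and through it the histone H3 lysine 9 methyltransferase SETDB1, heterochromatin proteins and DNA methylation, chiefly over transposable elements. The largest human clusters of these genes lie on chromosome 19, and the genes considered here are those that lie elsewhere, singly or in smaller tandem groups. A number of ZNF proteins have neither KRAB nor a repressor role and work in ribosome quality control, mitosis, DNA repair or RNA binding.

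After doxorubicin, 76 of the 208 genes were higher, 42 were lower and 90 did not pass the test (edgeR's quasi-likelihood test, Benjamini-Hochberg adjusted p under 0.05). These are 36.5% higher and 20.2% lower, while over all 15358 genes tested 64.7% were called, 32.7% as higher and 32.0% as lower. Higher calls thus outnumbered lower ones among the ZNF genes, and the calls of all genes were near balance. The share called higher lay near the background and the share called lower lay under it. The median log2 fold change, doxorubicin over DMSO, was 0.08 for the ZNF genes (quartiles -0.21 and 0.59), against -0.02 for the 12963 protein-coding genes tested and 0.00 for all genes tested. A change of at least 2-fold upward was seen in 21 of the 208 ZNF genes, a smaller share than the 14.2% of all tested genes. Downward it was seen in 0 ZNF genes, beside 6.26% of all tested genes. DESeq2 placed 1 ZNF gene past 2-fold downward, and 42 were lower at any size.

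The doxorubicin values lay wholly above the DMSO values in 84 ZNF genes and wholly below in 50, and the groups overlapped in 74. Over all genes tested the groups did not overlap in 69.1%, with doxorubicin above in 34.8% and below in 34.3%. Most changes were small, and 137 ZNF genes stayed within 1.5-fold. Of the 90 that were not called, 69 had a 95% interval of the fold change within 1.5-fold in both directions, with a median standard error (SE) of 0.14 on the log2 scale.

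The genes were weakly expressed compared with other protein-coding genes. Their median level was 2.79 CPM per kilobase of exon after doxorubicin and 2.17 CPM per kilobase in DMSO, where tested protein-coding genes had a median of 5.63. In DMSO the levels of single ZNF genes ran from 0.108 to 26.3 CPM per kilobase. Summed over all 208 genes, the libraries held 5427, 5289 and 5207 CPM after doxorubicin, against 4517, 4405 and 4599 CPM in DMSO. The groups did not overlap in this sum, to which ZNF385A alone gave between 209.8 and 267 CPM in the doxorubicin libraries.

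**Figure D1:**
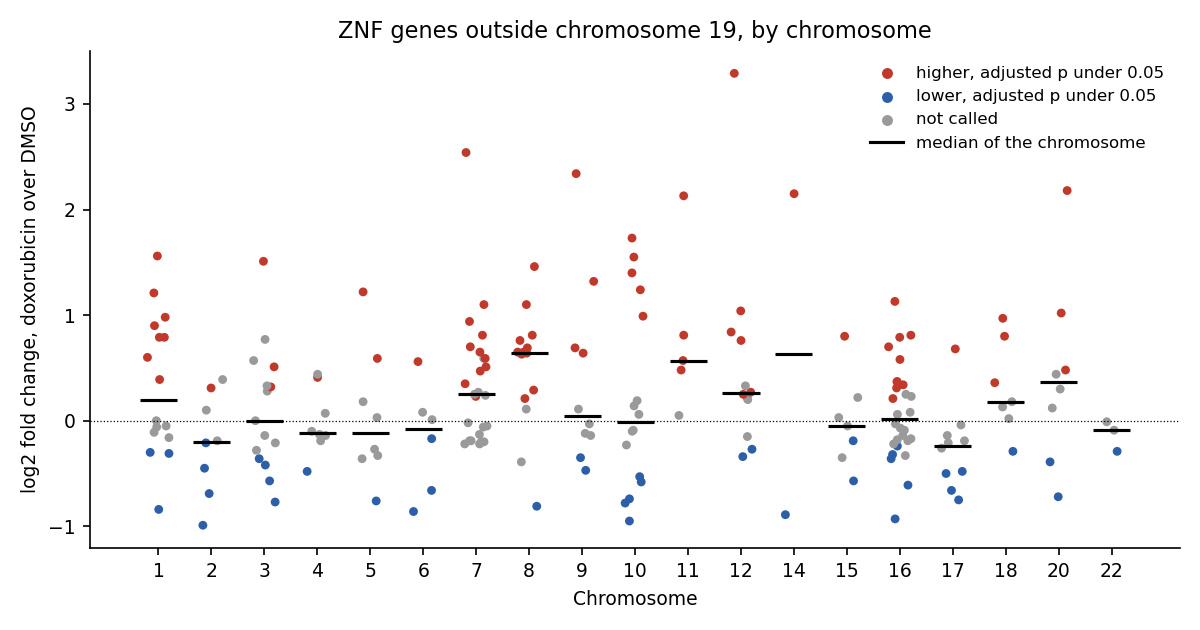
Log2 fold change (doxorubicin over DMSO) of each of the 208 ZNF genes, by chromosome, with a bar at each chromosome's median; points are genes. The points of chromosome 8 lie mostly above 0 (median 0.65), and those of chromosomes 2 and 17 have medians of -0.20 and -0.24.

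The steepest increase belonged to ZNF385A (ENSG00000161642, chr12:54369133-54391298, minus strand), also known as HZF, an RNA-binding and p53-binding protein reported to turn p53 toward genes of cell cycle arrest. It had 267, 209.8 and 214 CPM in doxorubicin libraries, against 25.3, 22.6 and 22.6 CPM in DMSO libraries. The lowest doxorubicin value was far above the highest DMSO value. The log2 fold change was 3.29 ± 0.10 (SE), 9.79-fold, with an adjusted p of 1.6e-12 in edgeR's quasi-likelihood test.

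ZNF385A belongs to a list of 5 genes that have been reported as targets of p53, the transcription factor that DNA damage activates. Of the 5, 4 were higher, beside 32.7% of all genes tested. These 4 also had some of the largest increases of all members. The list was chosen with earlier results of these data known, so the count describes these 5 genes only. ZNF79 (ENSG00000196152, chr9:127424374-127445372, plus strand), a KRAB zinc finger gene, had 40.3, 39.9 and 35.1 CPM after doxorubicin, against 6.65, 8.44 and 7.62 CPM in DMSO. Its groups were far apart, 5.07-fold (log2 2.34 ± 0.11, adjusted p = 1.8e-11 by edgeR). ZNF219 (ENSG00000165804, chr14:21090046-21104722, minus strand), a transcription factor that partners SOX9 in cartilage in the mouse, had 60.6, 52.5 and 51.7 CPM after doxorubicin, against 13.8, 12.1 and 11.1 CPM in DMSO. It was 4.45-fold higher with no overlap of the groups (log2 2.15 ± 0.10, adjusted p = 2e-11 by edgeR), and 22% of its exon bases are shared with TMEM253, which had 8 counts.

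ZNF337 (ENSG00000130684, chr20:25674215-25696841, minus strand), another KRAB zinc finger gene, had 8.41, 10.5 and 7.0 CPM after doxorubicin, against 1.96, 1.72 and 2.04 CPM in DMSO, 4.52-fold higher (adjusted p = 6.3e-08 by edgeR). In its case 73.8% of the exon bases lie in exons of other genes, chiefly the antisense gene ZNF337-AS1, which had 238 counts over the 6 libraries beside 576 for ZNF337. The libraries carry no strand, so reads of the pair cannot be told apart. The fifth gene of the list, ZNF365, whose product protects fragile sites during replication, had 8.64, 9.39 and 8.90 CPM after doxorubicin, against 9.33, 10.3 and 9.17 CPM in DMSO. Its groups overlapped and it was not called (log2 -0.10 ± 0.12, adjusted p = 0.52 by edgeR).

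Another 2 KRAB zinc finger genes stood among the 6 with the largest increases. ZNF425 (ENSG00000204947, chr7:149102784-149126346, minus strand) had 12.1, 11.3 and 8.67 CPM in doxorubicin libraries, against 1.84, 1.77 and 1.88 CPM in DMSO libraries. ZNF195 (ENSG00000005801, chr11:3339261-3379222, minus strand) had 44.6, 45.2 and 40.7 CPM after doxorubicin, against 9.67, 10.9 and 9.28 CPM in DMSO. Neither gene's groups overlapped, and the increases were 5.82-fold (adjusted p = 3.8e-09 by edgeR) and 4.37-fold (adjusted p = 1.4e-11 by edgeR).

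A further 15 genes were at least 2-fold higher, all by less than ZNF195. ZNF37A, a KRAB gene near the centromere of chromosome 10, reached 81.4 ± 5.32 CPM after doxorubicin and 24.6 ± 2.73 CPM in DMSO (SD, n = 3 each), a log2 fold change of 1.73. ZNF697 followed at 1.56, ZNF239 at 1.55, ZNF654 at 1.51 and ZNF596 at 1.46. The remaining 10 lay between 1.40 (ZNF485) and 1.02 (ZNF343). A KRAB box was found in 12 of the 21 genes.

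**Figure D2:**
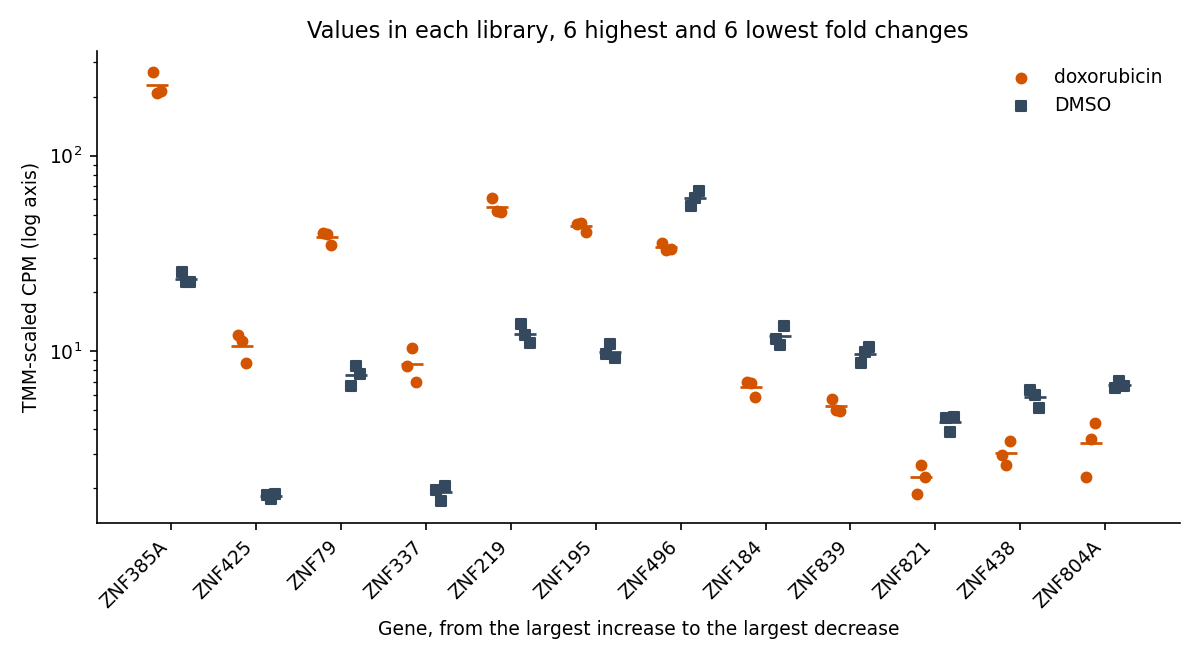
TMM-scaled CPM on a log axis in each library for the 6 ZNF genes with the highest and the 6 with the lowest log2 fold changes among those called whose groups do not overlap, with doxorubicin points left of DMSO points. The increases are larger than the decreases, with ZNF385A at 209.8 to 267 CPM after doxorubicin and ZNF804A at 2.27 to 4.31.

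The largest decreases were smaller than the largest increases. ZNF804A (chr2:184598366-184939492), which encodes a protein known from genetic studies of psychiatric disease, had 2.27, 3.59 and 4.31 CPM after doxorubicin, against 6.54, 7.08 and 6.63 CPM in DMSO. Its level was 1.99-fold higher in DMSO (log2 -0.99 ± 0.20, adjusted p = 0.00034 by edgeR), and the doxorubicin libraries spread widely without reaching the DMSO values. ZNF438 (log2 -0.95) and ZNF821 (-0.93) were also at low levels, and ZNF839 was at -0.89. In ZNF839, 24.7% of the exon bases are shared, chiefly with CINP on the opposite strand, which had 3351 counts over the 6 libraries beside 821 for ZNF839, and reads of the pair cannot be told apart. In ZNF821, 37.5% are shared, chiefly with a gene on the opposite strand that had 0 counts.

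ZNF184 (ENSG00000096654, chr6:27450743-27473118, minus strand), a KRAB gene in the histone gene region of chromosome 6, had 6.99, 6.86 and 5.82 CPM after doxorubicin, against 11.5, 10.8 and 13.5 CPM in DMSO. ZNF496 (ENSG00000162714, chr1:247297412-247331846, minus strand), which carries a SCAN and a KRAB domain, had 35.8, 33.1 and 33.2 CPM after doxorubicin, against 55.6, 61.0 and 66.1 CPM in DMSO. Both groups of values were separate, with log2 fold changes of -0.86 ± 0.14 for ZNF184 (adjusted p = 3.9e-05 by edgeR) and -0.84 ± 0.08 for ZNF496 (adjusted p = 1.3e-07 by edgeR).

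The DNA just before the starts of these genes was examined for short motifs. RefSeq gave windows of 250 bases before to 50 bases after a start on GRCh38.p14 for 174 of the 208 genes. Both strands were searched, and a gene counted once if any of its windows matched. The ETS-type motif CCGGAAGT was in 17.2% of the 174 genes, against 9.82% of 10511 tested protein-coding genes and 4.95% of all 27305 genes with a window. It was in 14 of 56 ZNF genes called higher (25.0%), 4 of 37 called lower (10.8%) and 12 of 81 not called (14.8%). The core ACTACA of the motif bound by ZNF143 was in 17.8% of ZNF genes, 11.4% of tested protein-coding genes and 10.3% of all genes with a window. Among the ZNF genes it was in 19.6% of those called higher, 10.8% of those called lower and 19.8% of those not called. A CCAAT box was in 50.6% of ZNF genes, 43.1% of tested protein-coding genes and 39.7% of all genes with a window. Among the ZNF genes it was in 57.1% of those called higher, 35.1% of those called lower and 53.1% of those not called. The E2F-type motif TTTCCCGC was in 4.02% of ZNF genes, close to the 3.23% of tested protein-coding genes, and in 1.98% of all genes with a window. By call it was in 2 of 56 ZNF genes called higher, 1 of 37 called lower and 4 of 81 not called. The p53 half-site was in 6.32% of ZNF genes, 7.71% of tested protein-coding genes and 8.06% of all genes with a window. It was thus no more common in the ZNF genes as a whole. By call it was in 5 of 56 genes called higher (8.93%), 1 of 37 called lower (2.7%) and 5 of 81 not called (6.17%). ZNF385A was among the 34 members with no window, so it was not searched for any motif. Each motif was counted on its own, also where matches share bases, and the matches describe the windows only.

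The 250 bases before the start are printed for 3 of the genes that were most increased and 1 that decreased, to show how the windows of genes with opposite changes compare. Capitals mark matches on either strand to CCGGAAGT, the ZNF143-type core, the CCAAT box or the p53 half-site. ZNF79 lies at chr9:127424132-127424381 on the plus strand, ZNF337 at chr20:25696854-25697103 on the minus strand, ZNF425 at chr7:149126325-149126574 on the minus strand and ZNF184 at chr6:27473106-27473355 on the minus strand. All are from RefSeq on GRCh38.p14 and run 5′ to 3′.
ZNF79: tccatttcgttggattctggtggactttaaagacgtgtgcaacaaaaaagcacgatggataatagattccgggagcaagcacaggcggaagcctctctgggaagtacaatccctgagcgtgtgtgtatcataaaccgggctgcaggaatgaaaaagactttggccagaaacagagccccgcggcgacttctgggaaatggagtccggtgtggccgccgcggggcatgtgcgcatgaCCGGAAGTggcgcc
ZNF337: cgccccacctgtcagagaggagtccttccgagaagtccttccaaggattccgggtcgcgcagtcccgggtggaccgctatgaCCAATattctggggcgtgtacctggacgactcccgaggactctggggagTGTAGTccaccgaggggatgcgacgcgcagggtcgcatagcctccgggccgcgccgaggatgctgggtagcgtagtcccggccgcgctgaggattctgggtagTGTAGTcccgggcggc
ZNF425: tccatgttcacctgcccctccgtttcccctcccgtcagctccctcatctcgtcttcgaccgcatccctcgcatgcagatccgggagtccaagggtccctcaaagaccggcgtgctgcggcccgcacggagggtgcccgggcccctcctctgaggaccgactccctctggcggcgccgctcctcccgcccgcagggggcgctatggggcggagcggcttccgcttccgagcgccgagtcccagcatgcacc
ZNF184: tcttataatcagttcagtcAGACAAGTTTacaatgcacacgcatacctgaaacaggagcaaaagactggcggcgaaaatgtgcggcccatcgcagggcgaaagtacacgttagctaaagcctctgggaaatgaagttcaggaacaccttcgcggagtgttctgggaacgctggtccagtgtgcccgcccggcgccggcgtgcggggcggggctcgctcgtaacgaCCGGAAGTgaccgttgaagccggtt
ZNF79, which was higher, and ZNF184, which was lower, both carry 1 ETS-type motif near the start. ZNF337 carries 2 ACTACA cores and 1 CCAAT box, ZNF425 none of the marked motifs, and ZNF184 also 1 p53 half-site.

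A KRAB A box was found by pattern in 91 of the 208 genes, against 157 of 205 ZNF genes on chromosome 19. The pattern misses divergent boxes, such as those of ZNF79 and ZNF263, so these counts are low. Of the 91 genes, 37 were higher (40.7%), 11 lower (12.1%) and 43 not called, with a median log2 fold change of 0.20. Of the 117 genes with no box found, 39 were higher (33.3%), 31 lower (26.5%) and 47 not called, with a median of 0.01. Over all genes tested, 32.7% were higher and 32.0% lower. The genes with a box were at a lower level, with a median log2 CPM of 3.01 against 4.36, which was not taken into account. The number of lower KRAB genes was 6 with DESeq2, 5 without doxorubicin library 3, 6 without DMSO library 1 and 7 without DMSO library 2, while the higher ones numbered 33 to 37 over all settings. A SCAN domain, a dimerization domain, was found in 15 genes, of which 6 were higher (40.0%) and 2 lower (13.3%). The difference between genes with and without these domains was not tested.

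The number of C2H2 fingers found by pattern had a median of 9 and a maximum of 33, in ZNF462. Among 46 genes with 0 to 4 fingers, 13 were higher (28.3%) and 18 lower (39.1%). The 70 genes with 5 to 9 had 28 higher (40.0%) and 13 lower (18.6%). Among 64 genes with 10 to 14 fingers, 24 were higher (37.5%) and 6 lower (9.38%). The 28 genes with 15 or more had 11 higher (39.3%) and 5 lower (17.9%). The level also differed between these classes, with median log2 CPM of 4.66, 3.93, 3.17 and 3.42 from the fewest to the most fingers. This was not taken into account. Over all genes tested, 32.7% were higher and 32.0% lower. Across the 208 genes, Spearman's rho between fingers and log2 fold change was 0.18, and that with genomic span -0.10. That with the level per kilobase in DMSO was -0.13, and the DMSO values also enter the fold change. These are descriptions across genes that share the same libraries.

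**Figure D3:**
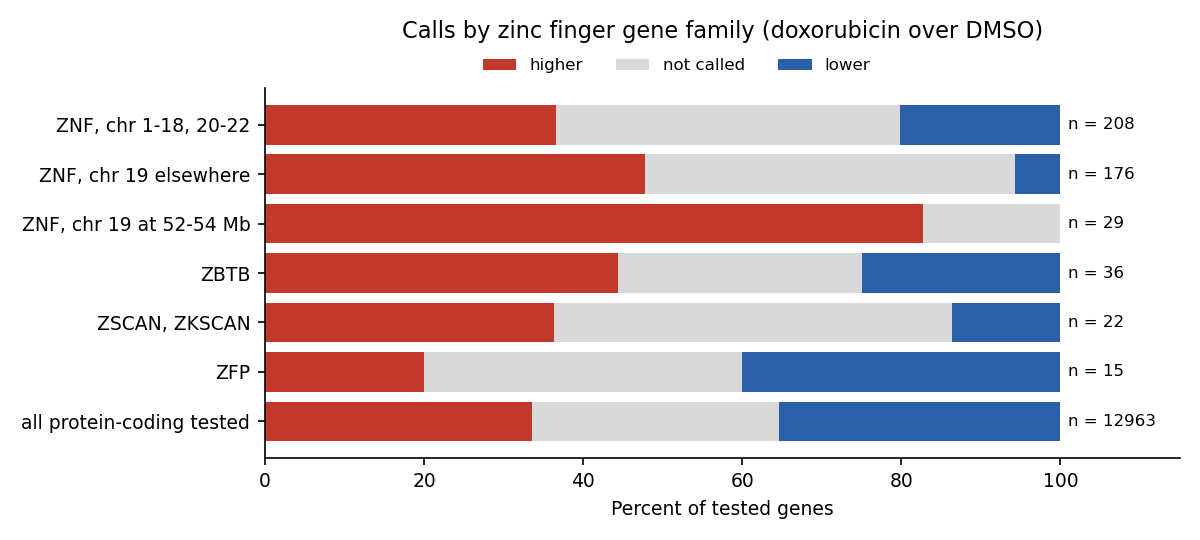
Percent of tested genes called higher, not called or called lower after doxorubicin. Rows are the ZNF genes outside chromosome 19, other zinc finger families and all protein-coding genes tested. The 29 ZNF genes at 52 to 54 Mb of chromosome 19 have 24 higher and 0 lower, and the 208 ZNF genes outside chromosome 19 have 76 higher and 42 lower. Of all protein-coding genes tested, 33.6% are higher and 35.3% lower.

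Other zinc finger families were set beside them. Over all genes tested, 32.7% were higher and 32.0% lower. Of 29 ZNF genes at 52 to 54 Mb of chromosome 19, 24 were higher (82.8%) and 0 lower, with a median log2 fold change of 0.99. Of 176 ZNF genes elsewhere on chromosome 19, 84 were higher (47.7%) and 10 lower (5.68%), with a median of 0.34. The genes outside chromosome 19 had a lower median than both and the largest share of decreases of the 3 sets. Of 36 ZBTB genes, whose products carry a BTB domain, 16 were higher and 9 lower (median 0.14). The 22 ZSCAN and ZKSCAN genes had 8 higher and 3 lower (median 0.24), and the 15 ZFP genes 3 higher and 6 lower (median -0.19). The members of a family are not replicates, so differences between the families were not tested.

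On chromosome 8, 11 of 14 ZNF genes were higher and 1 lower, with a median log2 fold change of 0.65, while 142 of the 430 other tested protein-coding genes there were higher and 154 lower (median -0.03). On chromosome 7, 11 of 25 were higher and 0 lower, with a median of 0.25. Other protein-coding genes of chromosome 7 had 186 of 570 higher and 200 lower. Chromosome 17 had 1 of 10 higher and 4 lower, where 37.1% of its other protein-coding genes were lower, and chromosome 2 had 1 of 8 higher and 4 lower, where 40.7% of the others were lower. These shares of lower genes lay near those of their chromosomes. Over all alternative settings the higher genes numbered 9 to 11 on chromosome 8 and 9 to 13 on chromosome 7.

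Tandem groups were defined as 3 or more members whose neighbouring starts lie within 500 kb of each other, and 91 genes fell into 18 such groups. Genes within the groups had 33 higher (36.3%) and 12 lower (13.2%), and the 117 outside them 43 higher (36.8%) and 30 lower (25.6%). Over all genes tested, 32.7% were higher and 32.0% lower. The share called higher was thus alike inside and outside the groups and near that of all genes. The difference in the share called lower was not tested, and the level also differed, with a median log2 CPM of 3.14 inside and 4.26 outside the groups. In 9 groups both directions were called, in 6 only higher, in 1 only lower and in 2 none. This tally depended on single calls: both directions were called in 4 groups with DESeq2, in 4 without DMSO library 1, in 5 without DMSO library 2 and in 6 without doxorubicin library 3.

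The group at chr7:149069643-149867479 had 7 of 9 genes higher and 0 lower, with 6 or 7 higher under every alternative setting. ZNF425, described above, led it at a log2 fold change of 2.54. ZNF746, also called PARIS, a KRAB repressor of PGC-1α that the ubiquitin ligase parkin degrades, had 74.0, 55.8 and 59.1 CPM after doxorubicin, against 26.7, 27.8 and 33.7 CPM in DMSO (log2 1.10 ± 0.12, adjusted p = 3.6e-06 by edgeR). The others that were higher were ZNF862 at 0.94, ZNF786 at 0.70, ZNF777 at 0.65, ZNF398 at 0.59 and ZNF282 at 0.47, and ZNF212 and ZNF783 were not called. The 1 other protein-coding gene tested in that interval was also higher, at 2.15.

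A second group of the same chromosome, at chr7:64307459-65401135 with ZNF92, ZNF107 and ZNF273 among its 7 genes, had no call in either direction and a median of -0.13. The same held for 5 genes at chr4:53285-499156, with a median of -0.10. Under other settings at most 1 gene of each of these groups was called.

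On chromosome 8, all 3 genes at chr8:143289676-143713898 were higher. ZNF623 had 73.9, 76.0 and 72.1 CPM after doxorubicin, against 33.3, 32.6 and 38.1 CPM in DMSO, with no overlap (log2 1.10 ± 0.08, adjusted p = 2.8e-09 by edgeR). ZNF707 was at 0.69 and ZNF696 at 0.63, while the 11 other tested protein-coding genes of that interval had 4 higher, 2 lower and a median of 0.01. At chr8:144720907-144950888, 4 of 6 were higher, 0 lower, with a median of 0.42.

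At chr1:247036784-247331846 neighbours moved in opposite directions. ZNF670, ZNF669 and ZNF124 were higher, at log2 fold changes of 1.21, 0.79 and 0.79, and ZNF496 at the end of the group was lower, at -0.84. ZNF670 had 10.8, 8.87 and 9.46 CPM after doxorubicin, against 4.14, 4.69 and 3.70 CPM in DMSO. The largest group, 11 genes at chr16:30378106-31084196, had 2 higher and 3 lower with a median of -0.07. These few calls were not stable: 0 were higher with DESeq2, with no filter and without DMSO library 1 or DMSO library 2, 1 without doxorubicin library 1 or 2, and 2 were lower without doxorubicin library 2 or 3 and without DMSO library 1 or 3. The 19 other protein-coding genes in that interval had 5 higher, 8 lower and a median of -0.06.

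**Figure D4:**
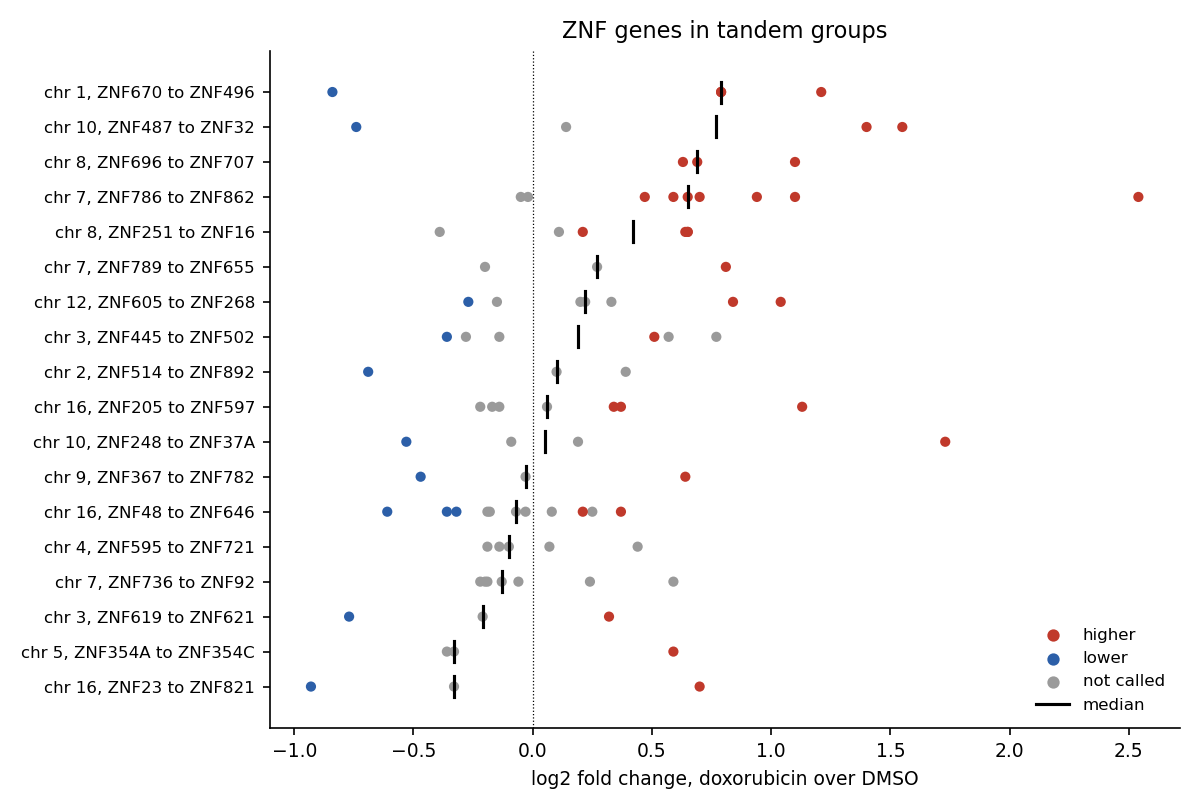
Log2 fold change (doxorubicin over DMSO) of the 91 ZNF genes in the 18 tandem groups, 1 row per group; points are genes and bars medians. The group from ZNF786 to ZNF862 has a median of 0.65, and the group from ZNF736 to ZNF92 lies near 0 with a median of -0.13.

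Of 7 measured RNA and ribosome factors, 3 were higher, 3 lower and 1 not called, where calls in either direction covered 64.7% of all genes tested in nearly equal numbers. ZNF622, a factor that matures the large ribosomal subunit in the cytoplasm, had 100.4, 86.4 and 97.0 CPM after doxorubicin, against 38.1, 40.2 and 43.2 CPM in DMSO, 2.33-fold higher (adjusted p = 8e-10 by edgeR). ZNF598, the ubiquitin ligase that senses collided ribosomes, had 179.7, 164 and 166 CPM after doxorubicin, against 105.2, 112 and 123 CPM in DMSO. It was higher with no overlap (log2 0.58 ± 0.07, adjusted p = 1.7e-06 by edgeR).

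ZNF706 was also higher, at a log2 fold change of 0.76. ZNF326, which links RNA polymerase II with splicing, was lower at -0.30, ZNF638, which guides the HUSH silencing complex to unintegrated viral DNA, at -0.21, and ZNF106 at -0.19. The last 2 were past the threshold by little, and 1 of the 7 factors remained lower without DMSO library 1. The double-stranded RNA binding protein ZNF346 was at 0.18 and not called. The eighth gene of the list, the ribosome factor ZNF593, was below the count limit with 3 counts. In ZNF593, 92.2% of the exon bases lie in exons of other genes, chiefly ZNF593OS on the opposite strand, which had 42 counts. Reads of that pair cannot be told apart, so the count does not show the level of ZNF593.

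Of 8 genes of mitosis, replication and genome maintenance, 2 were higher (25.0%) and 3 lower (37.5%), with a median of -0.06, near the shares over all genes. ZNF207 (BuGZ), which carries the checkpoint protein BUB3 to kinetochores, had 81.4, 105.3 and 92.2 CPM after doxorubicin, against 157, 155.4 and 157 CPM in DMSO (log2 -0.75 ± 0.08, adjusted p = 4.9e-07 by edgeR). The highest doxorubicin value was well under the lowest DMSO value. ZNF451, a SUMO ligase that helps TDP2 to remove trapped topoisomerase II from DNA, had 68.4, 67.0 and 62.4 CPM after doxorubicin, against 47.3, 42.5 and 44.5 CPM in DMSO. It was 1.47-fold higher, without overlap (log2 0.56 ± 0.07, adjusted p = 4.2e-06 by edgeR).

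ZNF384, which brings Ku proteins to DNA breaks, was higher by a log2 fold change of 0.27. ZNF830 was at -0.48 and ZNF618, a partner of UHRF2, at -0.35, and both were lower. ZNF365, ZNF367 at -0.03 and ZNF668 at 0.08 were not called.

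Of 17 measured transcription regulators that are known without a KRAB domain, 6 were higher (35.3%), 5 lower (29.4%) and 6 not called, with a median of -0.05. These shares lay near the 32.7% higher and 32.0% lower of all genes tested. The corepressor ZNF503 had 48.3, 38.1 and 41.2 CPM after doxorubicin, against 17.1, 20.8 and 26.2 CPM in DMSO (log2 0.99 ± 0.14, adjusted p = 9.7e-05 by edgeR). Its relative ZNF703 was higher by 0.29 on the log2 scale. ZNF516 was higher at 0.80, ZNF462 at 0.69 and ZNF143, an activator bound at many promoters, at 0.57.

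The pair of related genes ZNF608 and ZNF609 fell, at -0.76 and -0.57. ZNF609 had 71.0, 69.6 and 63.0 CPM after doxorubicin, against 105.4, 94.6 and 101.9 CPM in DMSO. Lower as well were ZNF395 at -0.81, ZNF148, which binds GC-rich promoters, at -0.42 and ZNF335, part of a histone H3 lysine 4 methyltransferase complex, at -0.39. ZNF217, ZNF281, ZNF532, ZNF592, ZNF644 and ZNF687 lay between -0.11 and 0.13 and were not called. Exon bases shared with other genes made up 34.9% in ZNF395 and 15.8% in ZNF503. The bone and neural regulators ZNF423 and ZNF521 and the epidermal regulator ZNF750 were below the count limit with 37, 5 and 10 counts.

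Among KRAB and SCAN genes with a known role, ZNF202 and ZNF263, DNA-binding repressors with both domains, were higher at 0.48 and 0.34. ZNF10 (KOX1), whose KRAB domain is the usual tool for targeted repression, was at 0.33 and ZNF445, which helps to keep genomic imprints, at -0.14, and neither was called (adjusted p = 0.18 and 0.13 by edgeR). Of the 5 most abundant members per kilobase in DMSO, ZNF598 and ZNF622 were higher, ZNF512B at -0.72 and ZNF664 at -0.34 were lower, and ZNF768 at -0.03 was not called.

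The partners through which KRAB proteins silence chromatin were mostly lower. Of 17 tested corepressor and histone H3 lysine 9 methylation genes, 15 were lower and 1 higher, with a median log2 fold change of -0.55, beside 32.0% of all genes tested called lower. Under the alternative settings 14 or 15 were lower. This list and that of the HUSH genes below were chosen with earlier results of these data known, so the counts describe these genes only. The 17 genes were also more abundant, with a median log2 CPM of 7.29 against 4.44 for all genes tested, which was not taken into account. TRIM28, the scaffold that KRAB domains bind, was at 580 ± 16.9 CPM after doxorubicin and 849 ± 31.9 CPM in DMSO (SD, n = 3 each), a log2 fold change of -0.55 (adjusted p = 6.4e-07 by edgeR). SETDB1, the methyltransferase it recruits, was at -0.29.

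The H3 lysine 9 methyltransferase gene EHMT2 (G9a) was at 59.2 ± 3.32 CPM after doxorubicin and 116 ± 0.191 CPM in DMSO (SD, n = 3 each), a log2 fold change of -0.97. UHRF1, which brings DNA methyltransferase to replicated DNA, was the single gene of the list past 2-fold, at -1.38. The heterochromatin protein genes CBX1, CBX3 and CBX5 were at -0.92, -0.85 and -0.56. MORC3 was higher at 0.32, and SMARCAD1 at -0.02 was not called. ATF7IP2 did not pass the low-count filter. Of 6 genes of the HUSH complex and its partners, MPHOSPH8 at 0.27 and MORC2 at 0.21 were higher, TASOR at -0.39, ATF7IP at -0.69 and SETDB1 were lower, and PPHLN1 at -0.04 was not called. These comparisons share all libraries with those of the ZNF genes.

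**Figure D5:**
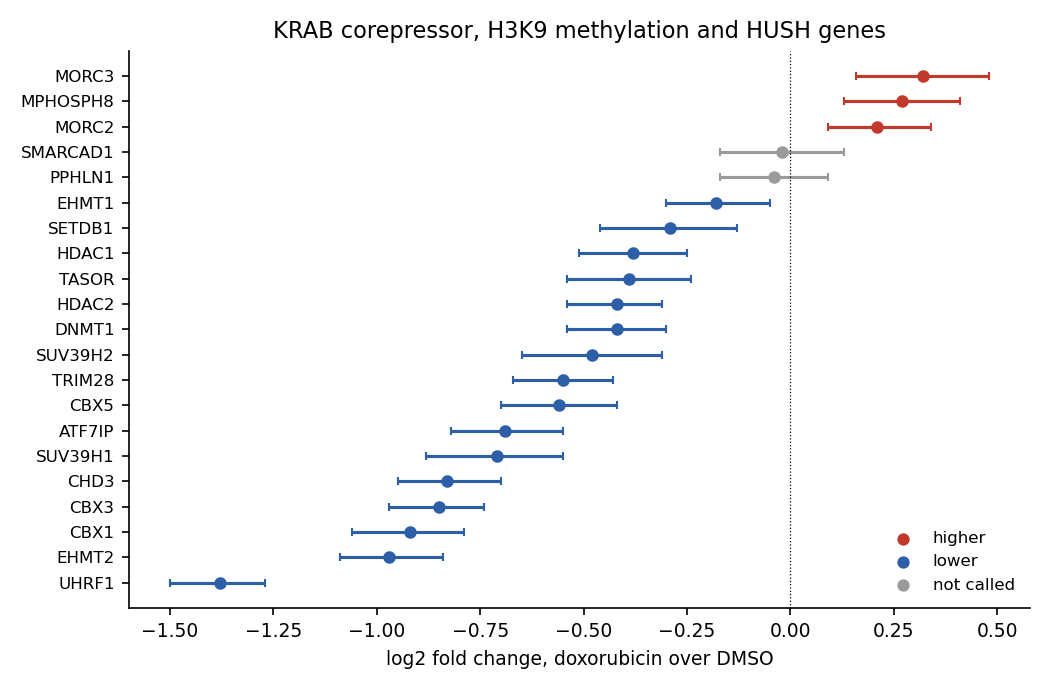
Log2 fold change (doxorubicin over DMSO) of the KRAB corepressor, H3 lysine 9 methylation and HUSH genes, 1 row per gene. Most points lie left of 0, with UHRF1 at -1.38 and EHMT2 at -0.97, and MORC3 at 0.32 lies farthest to the right.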

How the data were processed

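Raw counts were deposited as a single table with a column for each library, in featureCounts layout per the file headers. STAR, SAMtools, Subread and featureCounts, with GRCh38 (hg38), are named without versions in the submitters' processing notes. Per the labels' protocols the libraries were poly(A) selected and carry no strand, so overlapping genes on opposite strands can share reads, and 42 of the 208 members share over 10% of their exon bases with other genes. How reads that map to several places were treated was not given in the sources used here, and closely related members may share them. Symbols came from a gene name table (57717 of 58299 IDs), and gene types from GENCODE release 29, which holds 58179 of the IDs. Columns of other samples numbered 0.

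The test was edgeR 4.0.16 (R 4.3.3), quasi-likelihood, two-sided, of doxorubicin over DMSO with no covariate. Genes were kept by filterByExpr (minimum count 10, minimum total 15) and scaled by TMM, with robust dispersion. P-values were adjusted by Benjamini-Hochberg over the 15358 genes kept, with calls at an adjusted p under 0.05. The SE is the log2 fold change over the square root of its F value, and the 95% interval is 1.96 SE to each side. The procedure was run on simulated counts with the same dispersion for every gene and few changed genes. That setting differs from these data, so it does not tell how often the calls here are wrong. Fingers, KRAB and SCAN domains were sought by pattern in the longest open reading frame of GENCODE protein-coding transcripts, and the SCAN pattern found 20 of 22 ZSCAN and ZKSCAN genes.

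Members and lists were chosen with earlier results of these data known. Genes named are listed members with a known role, the 6 highest and 6 lowest fold changes among called members with mean log2 CPM of at least 0 and separate groups, the 5 most abundant per kilobase in DMSO, and the listed corepressors. The other members at least 2-fold higher and those of the tandem groups were named after their values were seen. Nothing in the labels says that the 3 libraries of a treatment are separate cultures, and p-values then measure only the spread between libraries, which may be technical. Chi-square per degree of freedom between libraries of 1 treatment was 2.82 to 9.39, so no library repeated another. DESeq2 1.42.0, other scalings and filters, a replicate block and leaving out each library were tried, and applying them to the counts of lists and tandem groups was chosen after seeing the data. Of the marker sums not given with the results, endothelial markers had 1.57 to 2.64 CPM after doxorubicin and 0.726 to 1.21 CPM in DMSO, leukocyte markers 1.53 to 2.40 CPM and 0.782 to 1.71 CPM, and epithelial markers 244 to 265 CPM and 165 to 230 CPM.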

Additional observations from a re-analysis of the deposited data

How the results depend on the processing

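The counts of members higher (68 to 82) and lower (31 to 42) stayed within 1.5 times the values given under every scaling, filter, tool and left-out library, and also with a summed count of at least 500 (70 higher, 38 lower of 175), with symbols of ZNF and digits alone (72 and 40 of 191) and without members over 10% overlap (60 and 33 of 166). Leaving out each library gave 71 to 77 higher, 31 to 40 lower, 20 to 25 higher at least 2-fold, 0 to 2 lower at least 2-fold and a median log2 fold change of 0.051 to 0.132. The members lower at least 2-fold numbered 1 with DESeq2, 1 without a filter and 1 with the replicate block. With library totals alone the median was 0.121, and the cause was not tested. The replicate numbers were not treated as pairs: same-numbered libraries deviated together by correlations of 0.0515, -0.0231 and 0.027, and with the replicate block 78 members were higher and 42 lower, 116 of them among the 118 called without it. Among named genes, 2 that were never called changed sign. ZNF367 was at 0.01 with library totals alone and at -0.14 to 0.04 with 1 library left out, and ZNF768 at 0.01 with library totals alone and at -0.10 to 0.09 with 1 library left out. ZNF638 lost its call without doxorubicin library 1 (adjusted p = 0.062 by edgeR) and without DMSO library 1 (0.054), and ZNF106 with library totals (0.067), without doxorubicin library 3 (0.079) and without DMSO library 1 (0.090). ZNF346 passed with library totals (0.042) and without doxorubicin library 2 (0.044). Depth limits the members near the count limit, where a total of about 100 counts over 6 libraries leaves wide intervals.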
